A study of Mus musculus with 7 samples.

Results

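The 10 genes described here encode chemokines, and they were taken by symbol from the 56953 genes counted in each library. They are the Cxcr3 ligands Cxcl9, Cxcl10 and Cxcl11, together with Ccl5, Cxcl16, Cx3cl1, Ccl2, Cxcl1, Cxcl12 and Cxcl14, and all 10 were found in the files. The libraries were poly(A) RNA of cells stained for viability and sorted from tumours of the mouse melanoma line B16 as negative for CD45, the common leukocyte surface marker, and for CD31, an endothelial marker. In the AAV-iIL12 group (3 libraries) tumours had received 8 Gy of radiotherapy together with AAV-iIL12, and in the AAV-iLuc group (4 libraries) the same 8 Gy together with the control AAV-iLuc. All 7 tumours were taken 5 days after treatment, and the submitters' design text gives the numbers per group as numbers of mice. AAV stands for adeno-associated virus, used to carry genes into cells. Interleukin 12 is a cytokine that makes T and NK cells release interferon gamma. The labels used here do not say what drives the transgenes, and the host strain is not given in the sources used here.

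Chemokines are small secreted proteins that direct leukocytes along concentration gradients through G protein-coupled receptors. Cxcl9, Cxcl10 and Cxcl11 are induced by interferons and attract activated T cells and NK cells that carry Cxcr3, and Ccl5 attracts T cells and monocytes through several receptors. Ccl2 attracts monocytes through Ccr2, Cxcl1 attracts neutrophils through Cxcr2, and Cxcl12 and Cxcl14 are made constitutively in many tissues, Cxcl12 acting through Cxcr4.

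Total counts lay between 16356653 and 19080587 per library, and transcripts of the melanocyte lineage were abundant in every library, with 7 lineage genes summing to between 27810 and 28700 CPM in AAV-iIL12 and between 22810 and 25960 CPM in AAV-iLuc. CPM are counts scaled to library size with the TMM factors of edgeR. The sort left low counts of leukocyte genes: Ptprc, which encodes CD45, had 37, 45 and 19 counts in AAV-iIL12 and 47, 3, 1 and 8 counts in AAV-iLuc. Across 5 leukocyte genes the summed level ranged from 3.29 to 8.64 CPM in AAV-iIL12 and from 0.476 to 8.93 CPM in AAV-iLuc, where replicate 1 stood apart from the rest of its group. Pecam1, which encodes CD31, had at most 4 counts in an AAV-iIL12 library and at most 7 in an AAV-iLuc library. Genes of other lists moved too: Pmel, Mlana and Mitf of the melanocyte lineage rose by 0.58, 0.38 and 0.25 (edgeR adjusted p = 1.04e-05, 0.00472 and 0.00573). The other 4 of the 7 lineage genes did not pass, and the median log2 fold change over the 7 was 0.1. Notch3, a pericyte gene, fell by 0.45 (edgeR adjusted p = 0.0357), and the other tested pericyte gene did not pass. Among all genes tested 23.5% rose and 23.7% fell. In these bulk samples, fewer cells of a type and less RNA per cell cannot be told apart.

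The promoter sequences show where letters recognised by interferon- and NF-kB-activated factors stood in genes that moved and genes that did not. RefSeq's promoter table (GRCm38.p6) held 6 of the 10 genes, namely Cxcl9, Cxcl10, Cx3cl1, Cxcl1, Cxcl12 and Cxcl14. The 250 bases before each start site were searched on both strands for 3 motifs. The core of the interferon-stimulated response element (ISRE) was searched as GAAA, any 2 bases and GAAA. The gamma-activated site (GAS) of interferon gamma targets was searched as TTC, any 3 bases and GAA, and a form of the NF-kB site as GGGA, any 2 bases and TTCC. Among 32851 promoters of the table, 2.98% held the ISRE letters, 7.02% the GAS letters and 1.21% the NF-kB letters. Capitals mark matches in the 4 sequences printed here, 5′ to 3′ on the strand of the gene. Cxcl10 (chr5:92348890-92349139, minus strand), which rose and was the most abundant of the 10 in AAV-iIL12, held an ISRE match at positions -213 to -204 and an NF-kB match at -159 to -150, counted from -1 at the last base before the start. Cxcl1 (chr5:90890995-90891244, plus strand), which did not pass the test, held overlapping NF-kB matches on both strands between -71 and -61. Cxcl14 (chr13:56296552-56296801, minus strand), which did not pass either, held a GAS match at -191 to -183 and an ISRE match at -172 to -163. Cxcl9 (chr5:92328080-92328329, minus strand), which rose, held none of the 3, which says only that these letters are not in this window.
Cxcl10: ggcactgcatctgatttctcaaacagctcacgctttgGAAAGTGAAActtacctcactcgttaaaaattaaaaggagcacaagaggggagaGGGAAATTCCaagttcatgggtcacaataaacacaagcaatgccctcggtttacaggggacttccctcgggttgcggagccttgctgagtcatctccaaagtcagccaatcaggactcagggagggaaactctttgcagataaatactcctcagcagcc
Cxcl9: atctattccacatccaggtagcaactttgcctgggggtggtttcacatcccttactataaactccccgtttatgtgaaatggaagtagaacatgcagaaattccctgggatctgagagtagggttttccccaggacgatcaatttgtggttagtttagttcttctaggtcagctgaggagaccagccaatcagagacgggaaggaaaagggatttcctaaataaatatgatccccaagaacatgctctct
Cxcl1: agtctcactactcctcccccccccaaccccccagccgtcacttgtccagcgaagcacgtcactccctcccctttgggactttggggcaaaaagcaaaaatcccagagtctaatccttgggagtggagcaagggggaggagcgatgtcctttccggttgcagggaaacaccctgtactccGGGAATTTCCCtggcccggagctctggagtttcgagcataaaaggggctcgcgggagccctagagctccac
Cxcl14: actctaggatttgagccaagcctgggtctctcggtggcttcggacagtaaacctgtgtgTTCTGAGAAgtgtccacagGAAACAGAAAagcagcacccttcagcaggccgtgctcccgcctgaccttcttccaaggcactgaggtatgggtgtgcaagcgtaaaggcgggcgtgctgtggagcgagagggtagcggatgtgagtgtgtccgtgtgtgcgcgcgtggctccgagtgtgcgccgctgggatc
The promoters of Cx3cl1 and Cxcl12 also held none of these letters. A match is a description of sequence and does not show binding.

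The Cxcr3 ligands Cxcl9, Cxcl10 and Cxcl11 rose in AAV-iIL12 tumours, as did Ccl5, which attracts T cells and monocytes, and Cx3cl1. Ccl2, Cxcl1, Cxcl12 and Cxcl14 did not pass the test, and Cxcl16 was too low to be tested. Of the 10 genes, 9 had counts high enough to be tested, and 5 of them rose, while 0 fell (edgeR, with p from its quasi-likelihood F test adjusted over 13990 genes and called under 0.05). Among all genes tested 23.5% rose, and 47.2% were called in either direction. The 5 were Cxcl9, Cxcl10, Cxcl11, Ccl5 and Cx3cl1, and in each of them every AAV-iIL12 library lay above every AAV-iLuc library, which held for 25.9% of all tested genes. The median log2 fold change over the 9 genes was 1.53, against -0.01 over all genes tested. Cxcl11 entered the test through the AAV-iIL12 libraries alone, and Cxcl9 through those and a single AAV-iLuc library. Both were therefore tested by virtue of the group where they were high. The 10 genes were also chosen with earlier results of these data known. The count of 5 and the median of 1.53 are thus descriptions only.

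**Figure D1:**
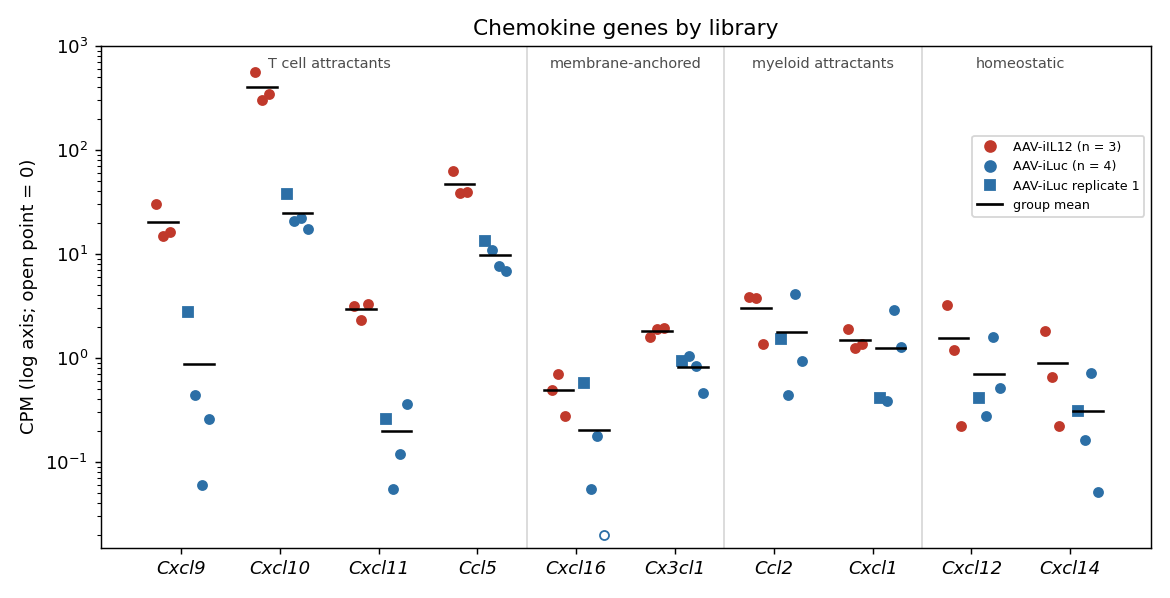
CPM of each of the 10 genes in every library on a log axis, with AAV-iIL12 libraries in red left of AAV-iLuc libraries in blue, black bars for group means, a square for AAV-iLuc replicate 1 and an open point for a value of 0. The groups separate for Cxcl9, Cxcl10, Cxcl11, Ccl5 and Cx3cl1 and overlap for the other genes.

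Cxcl10 (ENSMUSG00000034855, chromosome 5, 92494497 to 92496748, minus strand, GRCm39) was the most abundant of the Cxcr3 ligands in every library. It had 556, 301 and 343 CPM in AAV-iIL12, against 37.4, 20.9, 22.3 and 17.6 CPM in AAV-iLuc. AAV-iIL12 replicate 1 was the highest of its group and AAV-iLuc replicate 1 of its own, and the groups did not overlap. The group means were 399.9 ± 136.8 CPM in AAV-iIL12 (SD, n = 3) and 24.5 ± 8.79 CPM in AAV-iLuc (SD, n = 4). The log2 fold change was 4.02 ± 0.28 (SE), with a 95% interval of 3.41 to 4.64 (edgeR adjusted p = 4.38e-06).

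Cxcl9 (ENSMUSG00000029417, chromosome 5, 92469206 to 92475938, minus strand) had 30.1, 15.03 and 16.3 CPM in AAV-iIL12, against 2.75, 0.438, 0.0595 and 0.257 CPM in AAV-iLuc. Replicate 1 supplied most of the AAV-iLuc signal, with 53 counts against 8, 1 and 5 in the other AAV-iLuc libraries. The log2 fold change was 4.49 ± 0.58 (SE, edgeR adjusted p = 1.65e-04), and it was 6.28 ± 0.45 without AAV-iLuc replicate 1 (adjusted p = 5.11e-06). No other AAV-iLuc library reached the filter minimum, so that fit tested Cxcl9 through the AAV-iIL12 libraries alone. Leukocyte genes moved with AAV-iLuc replicate 1, at 8.93 CPM there and between 0.476 and 1.596 CPM in the rest of the group, and their part in its Cxcl9 level was not tested. Between libraries with like sums of the 5 leukocyte genes, AAV-iIL12 replicate 1 (8.64 CPM of leukocyte genes) had 30.1 CPM of Cxcl9, and AAV-iLuc replicate 1 had 2.75 CPM. Other markers differed between these libraries. In the same order, T and NK cell genes summed to 3.89 and 1.25 CPM, and monocyte and macrophage genes to 34.7 and 28.3 CPM. Per 1000 CPM of leukocyte genes Cxcl9 stood at 3486, 2664 and 4950 CPM in AAV-iIL12, against 308, 571, 125 and 161 CPM in AAV-iLuc, with no overlap. This was not tested, and the ratios of AAV-iLuc replicates 2, 3 and 4 rest on 8, 1 and 5 counts of Cxcl9.

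Cxcl11 (ENSMUSG00000060183, chromosome 5, 92507403 to 92513344, minus strand) had 52, 43 and 60 counts in AAV-iIL12, against 5, 1, 2 and 7 counts in AAV-iLuc. Its mean was 2.93 ± 0.52 CPM in AAV-iIL12, against 0.198 ± 0.14 CPM in AAV-iLuc (SD, n = 3 and 4), with a log2 fold change of 3.81 ± 0.39 (SE, edgeR adjusted p = 4.16e-05). As background, the C57BL/6 strain from which B16 comes carries a frameshift in Cxcl11 and makes no functional protein from it. The 95% intervals of the log2 fold changes of the Cxcr3 ligands overlapped one another, at 3.19 to 5.78 for Cxcl9, 3.41 to 4.64 for Cxcl10 and 2.93 to 4.69 for Cxcl11.

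The 3 ligand genes lie side by side on the minus strand of chromosome 5 within 44139 bases, with 18558 bases between Cxcl9 and Cxcl10 and 10654 bases between Cxcl10 and Cxcl11. Art3, an ADP-ribosyltransferase gene on the opposite strand, spans Cxcl10 and Cxcl11, and it had a log2 fold change of 0.49 and did not pass (edgeR adjusted p = 0.0642). The counting was reverse-stranded per the file headers, so reads of Art3 and of the ligands were counted apart. Of the flanking genes, Sdad1 had a log2 fold change of -0.11 and Naaa of -0.03, and neither passed (adjusted p = 0.253 and 0.892). Nup54, a nuclear pore subunit, fell by 0.26 and Scarb2, a lysosomal membrane protein, rose by 0.47 (adjusted p = 0.00849 and 4.52e-04).

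**Figure D2:**
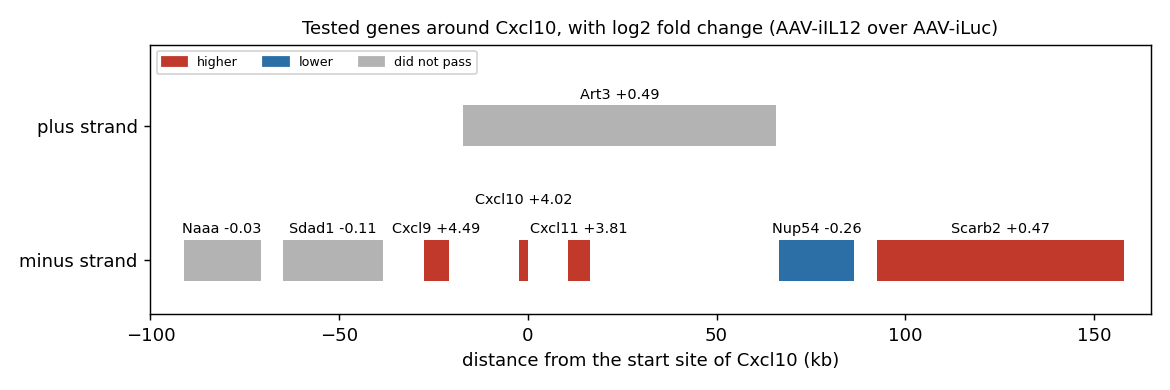
Tested genes within 100000 bases of Cxcl10, drawn to scale by distance in kb from its start site, one row per strand, with log2 fold changes printed and colours for higher, lower and not passed. Cxcl9, Cxcl10 and Cxcl11 rose by between 3.81 and 4.49, and the other genes shown had values between -0.26 and 0.49.

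Ccl5 (ENSMUSG00000035042, chromosome 11, 83416604 to 83421344, minus strand) had 62.9, 38.2 and 39.4 CPM in AAV-iIL12, against 13.3, 11.01, 7.68 and 6.90 CPM in AAV-iLuc. The lowest AAV-iIL12 library lay well above the highest AAV-iLuc library. The log2 fold change was 2.26 ± 0.24 (SE, 95% interval 1.74 to 2.79, edgeR adjusted p = 4.26e-05). This interval lay below those of Cxcl9, Cxcl10 and Cxcl11, and the difference was not tested. Ccl5 is also a product of T and NK cells, whose 9 marker genes summed to between 0.823 and 3.89 CPM in AAV-iIL12 and between 0 and 1.25 CPM in AAV-iLuc, each too low to be tested. The cytotoxic granule gene Gzmb had 32, 12 and 8 counts in AAV-iIL12, against 4, 0, 0 and 0 in AAV-iLuc. Cd8a, a marker of cytotoxic T cells, had 6, 4 and 6 counts in AAV-iIL12, against 0 in all 4 AAV-iLuc libraries. These 2 genes separated the groups as Ccl5 did, and the other 7 did not. In AAV-iLuc replicate 3 all 9 were at 0 while Ccl5 stood at 7.68 CPM. Per 1000 CPM of the 5 leukocyte genes, Ccl5 stood at 7281, 6769 and 11960 CPM in AAV-iIL12, against 1488, 14360, 16120 and 4322 CPM in AAV-iLuc, and the groups overlapped. They also overlapped per 1000 CPM of the T and NK cell genes, at 16160, 15310 and 47870 CPM in AAV-iIL12, against 10670, 201000 and 134000 CPM in AAV-iLuc replicates 1, 2 and 4. The sums of these T and NK cell genes were 0.0548 and 0.0515 CPM in AAV-iLuc replicates 2 and 4. Their ratios, which alone lay above those of AAV-iIL12, thus rest on very few counts, and replicate 3 has no ratio. The part of T and NK cells in the Ccl5 level was not tested. Heatr9, the tested gene next to Ccl5 on the same strand, rose by 3.75 (edgeR adjusted p = 5.06e-04), while Ccl9 and Ccl6, farther along, had log2 fold changes of -0.28 and 0.19 and did not pass (adjusted p = 0.733 and 0.845).

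Cx3cl1 and Cxcl16 are made as membrane-anchored proteins whose chemokine domain is shed by the metalloproteases Adam10 and Adam17, and they bind Cx3cr1 and Cxcr6. Cx3cl1 (ENSMUSG00000031778, chromosome 8, 95498637 to 95509055, plus strand) had 1.58, 1.90 and 1.92 CPM in AAV-iIL12, against 0.935, 1.04, 0.833 and 0.463 CPM in AAV-iLuc. Its values rested on 9 to 35 counts per library and did not overlap between groups, with a log2 fold change of 1.14 ± 0.29 (SE, edgeR adjusted p = 0.0085). Cxcl16 (ENSMUSG00000018920, chromosome 11, 70344809 to 70350810, minus strand) had 8, 13 and 5 counts in AAV-iIL12, against 11, 1, 3 and 0 counts in AAV-iLuc. The groups overlapped and the gene was too low to be tested. Its total of 26 counts in AAV-iIL12 against 15 in AAV-iLuc gave a ratio of 2.41 after scaling for depth, with a 95% exact binomial interval of 1.23 to 4.89 that covers counting error only. Most of the AAV-iLuc counts of Cxcl16 came from replicate 1. Adam10 fell by 0.20 (edgeR adjusted p = 0.0234) and Adam17 did not pass, with means of 116 ± 2.29 CPM in AAV-iIL12 against 126 ± 3.43 CPM in AAV-iLuc (log2 fold change -0.11, adjusted p = 0.068). Adam17 was called lower when scaled by library size alone (adjusted p = 0.0044) and by the upper quartile (0.00732). The Adam10 call ended with the replicate block (adjusted p = 0.0561), without AAV-iIL12 replicate 1 (0.084) and without AAV-iLuc replicate 1 (0.0509). It also ended at the stricter threshold of 0.01.

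In CPM the myeloid attractants overlapped between the groups. Ccl2 (ENSMUSG00000035385, chromosome 11, 81926397 to 81928279, plus strand) had 3.83, 3.80 and 1.37 CPM in AAV-iIL12, against 1.51, 0.438, 4.17 and 0.927 CPM in AAV-iLuc. The highest value of all 7 was that of AAV-iLuc replicate 3. The log2 fold change of 0.79 ± 0.60 (SE) had a 95% interval of -0.56 to 2.14 (edgeR adjusted p = 0.312), and without AAV-iLuc replicate 3 it was 1.63 and passed (adjusted p = 0.0259). Cxcl1 (ENSMUSG00000029380, chromosome 5, 91039100 to 91040974, plus strand) had 1.89, 1.25 and 1.37 CPM in AAV-iIL12, against 0.416, 0.383, 2.92 and 1.29 CPM in AAV-iLuc. It too was highest in AAV-iLuc replicate 3, and its log2 fold change of 0.28 had a 95% interval of -1.05 to 1.62 (adjusted p = 0.727). Without AAV-iLuc replicate 1 or 2 the Cxcl1 value was -0.01 or -0.02, so no direction can be given, and without AAV-iLuc replicate 3 it was 1.09 (adjusted p = 0.0851). The 5 neutrophil genes summed to at most 0.183 CPM in an AAV-iIL12 library and 0.519 CPM in an AAV-iLuc library. The upper bounds for Ccl2 and Cxcl1 lay below the lower bounds for Cxcl9, Cxcl10 and Cxcl11, while the interval of Ccl2 overlapped that of Ccl5, and these differences between genes were not tested.

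Cxcl12 (ENSMUSG00000061353, chromosome 6, 117145496 to 117158328, plus strand) had 3.23, 1.19 and 0.22 CPM in AAV-iIL12, against 0.416, 0.274, 1.61 and 0.515 CPM in AAV-iLuc. Cxcl14 (ENSMUSG00000021508, chromosome 13, 56436456 to 56444364, minus strand) had 1.83, 0.651 and 0.22 CPM in AAV-iIL12, against 0.312, 0.164, 0.714 and 0.0515 CPM in AAV-iLuc. Both genes varied more within AAV-iIL12 than their group means differed from those of AAV-iLuc. The log2 fold changes were 1.14 for Cxcl12 (95% interval -0.56 to 2.83, edgeR adjusted p = 0.246) and 1.53 for Cxcl14 (95% interval -0.19 to 3.24, adjusted p = 0.129). They were 0.05 and 0.53 without AAV-iIL12 replicate 1, and 1.90 for Cxcl12 without AAV-iLuc replicate 3.

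Fibroblast genes, which the sort did not remove, varied among the same libraries. The 6 fibroblast genes (Col1a1, Col1a2, Col3a1, Dcn, Lum and Pdgfra) summed to 152, 99.3 and 55.5 CPM in AAV-iIL12, against 83.6, 80.8, 285 and 142 CPM in AAV-iLuc, and 0 of the 6 passed the edgeR test. Within each group the libraries fell in the same order for Cxcl12 as for this sum. Cxcl14 and Ccl2 shared the order in AAV-iIL12 but not in AAV-iLuc, and Cxcl1 in AAV-iLuc but not in AAV-iIL12. AAV-iLuc replicate 3, the highest in fibroblast genes, was also the highest library in Ccl2 and Cxcl1. Per 1000 CPM of fibroblast genes, Cxcl12 stood at 21.2, 12.0 and 3.96 CPM in AAV-iIL12 and at 4.97, 3.39, 5.63 and 3.62 CPM in AAV-iLuc, so the groups overlapped on this scale too. The other genes set against fibroblast genes did not overlap on this scale, and each was higher in every AAV-iIL12 library. Ccl2 stood at 25.2, 38.2 and 24.7 CPM per 1000 in AAV-iIL12, against 18.01, 5.42, 14.6 and 6.51 in AAV-iLuc. Cxcl1 stood at 12.4, 12.6 and 24.7 CPM per 1000 in AAV-iIL12, against 4.97, 4.75, 10.2 and 9.04 in AAV-iLuc. Cxcl14 stood at 12.0, 6.55 and 3.96 CPM per 1000 in AAV-iIL12, against 3.73, 2.03, 2.50 and 0.362 in AAV-iLuc. These ratios are descriptions with no test, and several rest on few counts. The part of fibroblasts in these levels was not tested. The 4 keratinocyte genes (Krt5, Krt14, Krt15 and Trp63), listed because skin epithelium makes Cxcl14, held 1 count in 7 libraries.

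**Figure D3:**
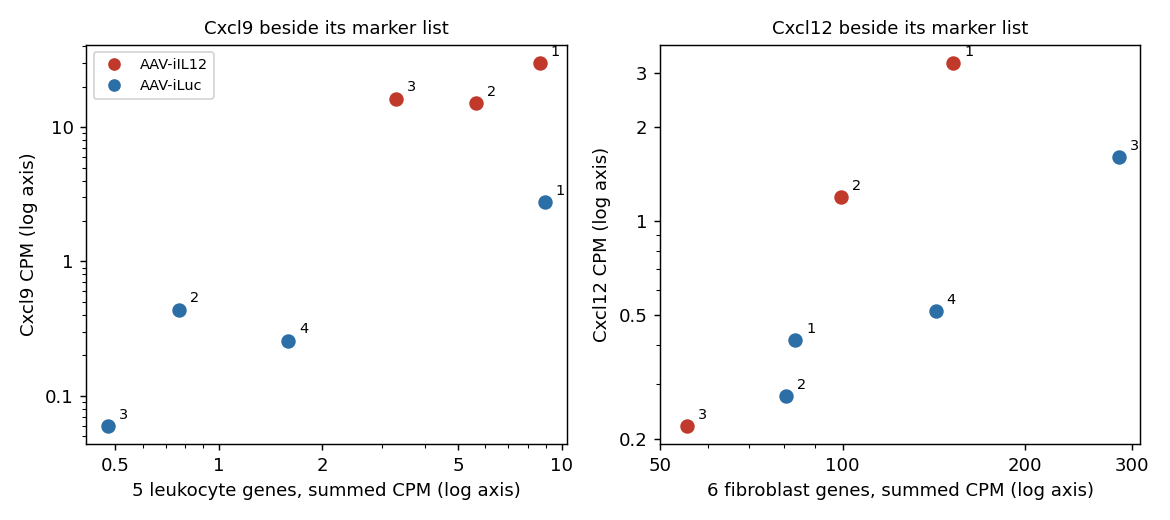
Cxcl9 against the summed CPM of 5 leukocyte genes (left) and Cxcl12 against that of 6 fibroblast genes (right), each point 1 library with its replicate number, both axes logarithmic. At like sums of these 5 leukocyte genes Cxcl9 stood at 30.1 CPM in AAV-iIL12 replicate 1 and at 2.75 CPM in AAV-iLuc replicate 1, and in each group the libraries keep 1 order for Cxcl12 and fibroblast genes. Other markers differed between AAV-iIL12 replicate 1 and AAV-iLuc replicate 1, and neither relation was tested.

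Compared per transcript length as TPM (counts per gene length, scaled to the same total in every library, with the deposited gene lengths), the chemokine transcripts were mostly Cxcl10 and Ccl5 in both groups. The 10 genes summed to 1171, 675 and 741 TPM in AAV-iIL12, against 133, 85.4, 94.0 and 67.1 TPM in AAV-iLuc. Cxcl10 made up 74.9%, 72.6% and 75.3% of that sum in AAV-iIL12, against 49.4%, 42.4%, 41.2% and 46.2% in AAV-iLuc. Ccl5 made up 19.9%, 21.6% and 20.3% in AAV-iIL12, against 41.2%, 52.3%, 33.3% and 42.6% in AAV-iLuc, so that in AAV-iLuc the level of Cxcl10 was between 0.81 and 1.24 times that of Ccl5 and in AAV-iIL12 between 3.36 and 3.77 times. Among the Cxcr3 ligands alone, Cxcl10 held between 95.8% and 96.0% of the TPM in AAV-iIL12 and between 94.4% and 99.5% in AAV-iLuc.

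The 4 T cell attractants together (Cxcl9, Cxcl10, Cxcl11 and Ccl5) stood at 1149, 655 and 732 TPM in AAV-iIL12, against 125, 81.5, 70.2 and 60.3 TPM in AAV-iLuc. Ccl2 and Cxcl1 together stood at 15.5, 14.7 and 7.11 TPM in AAV-iIL12, against 6.12, 2.30, 20.4 and 5.97 TPM in AAV-iLuc. The ratio of the first sum to the second was 73.9, 44.8 and 103 in AAV-iIL12, and 20.3, 35.5, 3.44 and 10.1 in AAV-iLuc. The ratio was higher in every AAV-iIL12 library than in every AAV-iLuc library, and it is given as a description, with no test. In the AAV-iIL12 means, Cxcl10 at 642 ± 207 TPM stood above Ccl5 at 176 ± 49.0 TPM, then Cxcl9 at 24.5 ± 9.54 and Ccl2 at 9.53 ± 4.43 TPM (SD, n = 3). Below them Cxcl1 at 2.90 ± 0.60 and Cxcl11 at 2.80 ± 0.49 TPM did not differ beyond their spread, nor did Cxcl14 at 1.77 ± 1.61 and Cx3cl1 at 1.66 ± 0.20 TPM, and Cxcl12 and Cxcl16 were lowest, at 0.678 ± 0.66 and 0.587 ± 0.26 TPM.

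**Figure D4:**
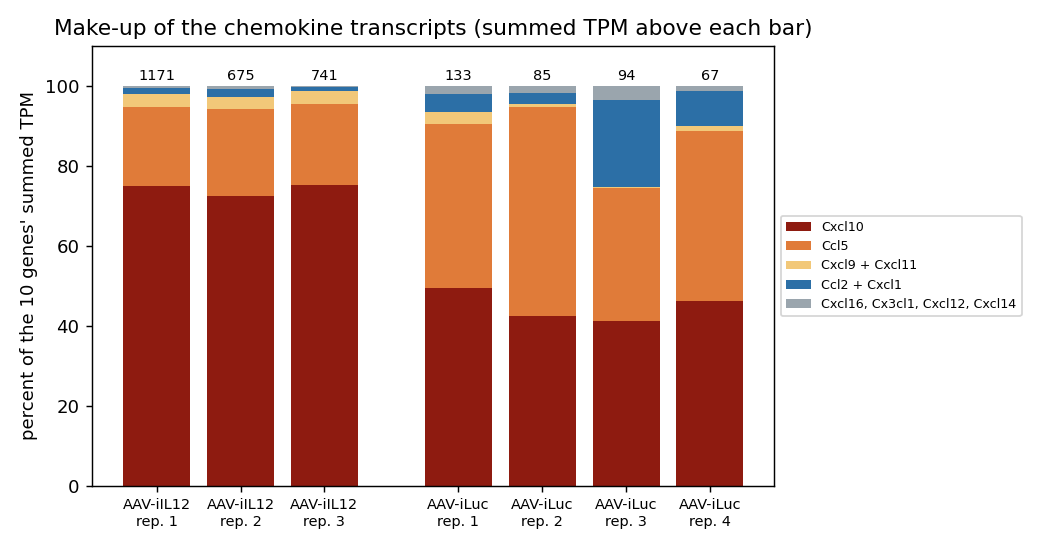
Share of each gene or pair in the summed TPM of the 10 genes, 1 stacked bar per library, AAV-iIL12 on the left, with the summed TPM above each bar. Cxcl10 holds between 72.6% and 75.3% in AAV-iIL12 and between 41.2% and 49.4% in AAV-iLuc, and Ccl2 with Cxcl1 reach 21.7% in AAV-iLuc replicate 3.

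Outside these genes, 0 of the 6 tested members of the 28 other chemokine ligands passed in edgeR, with 0 of the 6 also at an unadjusted p under 0.05 and 0 in DESeq2 and limma-voom. Among all genes tested 47.2% were called in either direction in edgeR. The other 22 were too low to be tested, with 6 at 0 in every library and no library above 38 counts. The median log2 fold change over the 6 tested ligands was 0.20. The most abundant tested ligands were Ccl25, a thymic and gut chemokine, Ccl27a, a skin chemokine, and Ccl7, a monocyte attractant next to Ccl2. Ccl25 had a mean of 7.99 ± 0.37 CPM in AAV-iIL12, against 8.98 ± 1.54 CPM in AAV-iLuc (SD, n = 3 and 4). Ccl27a had 1.64 ± 0.38 CPM in AAV-iIL12, against 1.41 ± 0.25 CPM in AAV-iLuc. Ccl7 had 1.58 ± 1.32 CPM in AAV-iIL12, against 0.921 ± 0.70 CPM in AAV-iLuc. Ccl7 and Ccl11, neighbours of Ccl2 on the same strand, had log2 fold changes of 0.77 and 1.09 (edgeR adjusted p = 0.35 and 0.262).

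**Figure D5:**
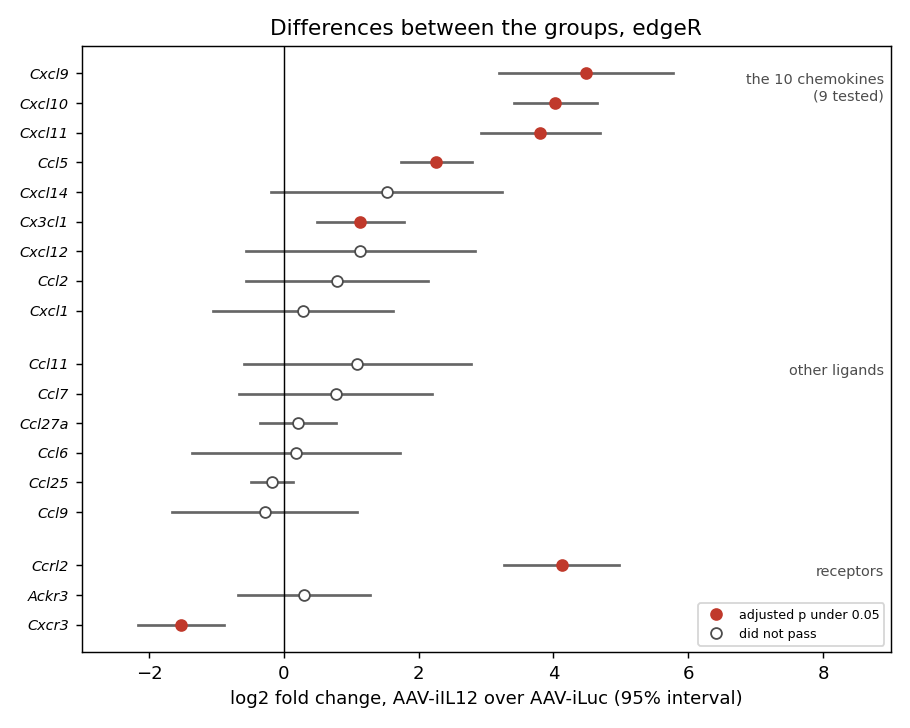
Log2 fold change (AAV-iIL12 over AAV-iLuc) with its 95% interval for the 9 tested chemokines, the 6 tested other ligands and the 3 tested receptors, filled where the edgeR adjusted p was under 0.05. Filled points stand between 1.14 and 4.49 for the chemokines, at 4.13 for Ccrl2 and at -1.52 for Cxcr3, and the intervals of all 6 other ligands cover 0.

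Of 22 chemokine receptor genes 3 were tested, with 1 higher, 1 lower and 1 not passed. Ccrl2, an atypical receptor that binds chemerin without signalling to migration, had 17.7, 16.0 and 16.9 CPM in AAV-iIL12, against 2.34, 0.548, 0.298 and 0.566 CPM in AAV-iLuc, with a log2 fold change of 4.13 ± 0.38 (SE, edgeR adjusted p = 2.17e-05) and of 5.13 without AAV-iLuc replicate 1. Cxcr3, the receptor of Cxcl9, Cxcl10 and Cxcl11, was lower: it had 1.64, 2.44 and 1.65 CPM in AAV-iIL12, against 3.32, 5.48, 7.44 and 5.87 CPM in AAV-iLuc. Every AAV-iIL12 library lay below every AAV-iLuc library, as in 26.7% of all tested genes, and the log2 fold change was -1.52 ± 0.29 (SE, edgeR adjusted p = 0.0016, where 23.7% of all tested genes fell). Cxcr3 was highest, with 125 counts, in AAV-iLuc replicate 3, where all 9 T and NK cell genes were at 0. The part of T and NK cells in the Cxcr3 level was not tested. Ackr3, an atypical receptor of Cxcl12, did not pass, with a log2 fold change of 0.30 (edgeR adjusted p = 0.604). Cxcr2, the receptor of Cxcl1, had 0 counts in all libraries.

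In the signals upstream of these chemokines, 7 of 9 genes rose, 1 fell and 1 did not pass, where 23.5% of all tested genes rose and 23.7% fell. The list was chosen with earlier results of these data known, so these counts are a description only. Irf1, which binds the ISRE, rose by 4.27 (edgeR adjusted p = 3.13e-04). Jak2 and Jak1 rose by 1.28 and 0.38, and the NF-kB subunit genes Relb, Nfkb2, Nfkb1 and Rela by 1.09, 0.58, 0.47 and 0.24. Ifngr2, which encodes a chain of the receptor for interferon gamma, fell by 0.23 and Ifngr1 did not pass (adjusted p = 0.00242 and 0.0547). Ifngr1 was called lower when scaled by library size alone (log2 fold change -0.29, adjusted p = 0.0118), by the upper quartile (-0.27, 0.0141) and without AAV-iLuc replicate 2 (-0.23, 0.0422). Without AAV-iLuc replicate 1 the log2 fold change of Irf1 was 5.38. Of the shedding and cleavage genes, Ctss, a lysosomal protease also made by macrophages and dendritic cells, rose by 4.48 (adjusted p = 4.82e-04), and by 7.48 without AAV-iLuc replicate 1. Of the 7 monocyte and macrophage genes 6 were tested, and C1qb, a complement subunit, passed, with a log2 fold change of 2.48 (adjusted p = 0.0208). The 7 genes summed to between 22.8 and 34.7 CPM in AAV-iIL12 and between 14.9 and 28.3 CPM in AAV-iLuc. Most of this sum was Cd68 in every library. Cd68 stood at 21.2, 15.7 and 18.9 CPM in AAV-iIL12, against 16.4, 16.8, 13.9 and 14.1 CPM in AAV-iLuc.

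The genes whose profiles over the 7 libraries were nearest to each T cell attractant were found by the root mean square difference of centred log2 CPM. For Cxcl10 they were Trim12a, H2-T22 and Pacsin1, at 0.201, 0.213 and 0.223 log2 units. For Ccl5 they were Helz2, Tor3a and Vwa5a, at 0.143, 0.155 and 0.195. For Cxcl9 they were Batf2, Olfr56 and Il18bp, at 0.507, 0.555 and 0.555, and for Cxcl11 Prph, Trafd1 and Ifit2, at 0.424, 0.466 and 0.466. Profiles of this kind follow the difference between the groups, and all 12 of these genes rose, by between 2.20 and 5.10 on the log2 scale.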

How the data were processed

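The deposited values are raw fragment counts per gene, made by the authors with featureCounts 1.6.0 over exons, reverse-stranded, with the GENCODE vM32 annotation, per the file headers. FastQC 0.11.8, STAR 2.7.9a and the build GRCm39 are named in the submitters' processing notes. The headers show no setting for multi-mapped reads. Gene lengths in the deposited files served for TPM. Symbols came from a gene name table by identifier, which matched 52029 of 56953 genes holding 99.4% of counts.

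The comparison used edgeR 4.0.16 under R 4.3.3 (quasi-likelihood F test, TMM, filterByExpr, Benjamini-Hochberg adjustment at 0.05 over all tested genes). The filter asked for about 0.535 CPM in enough libraries. Standard errors and intervals of log2 fold changes were derived from the F statistic. Values are mean ± SD. Log2 CPM used a prior count of 2. The test was checked on simulated counts. The 10 chemokines and the lists were chosen with earlier results of these data known. All 10 were named, with every other listed gene that passed, the 3 most abundant that did not, and the 3 nearest profiles of mean log2 CPM of at least 2. Alternatives were other scalings and filters, DESeq2 1.42.0, limma-voom (limma 3.58.1), a threshold of 0.01, the replicate number as a block and each library left out. No libraries of a group were alike enough to be 1 library deposited again. The labels give no batch. Some listed genes are not reported here.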

Additional observations from a re-analysis of the deposited data

Results flagged for a closer look

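In 4 of 31 genes checked, AAV-iLuc replicate 1 lay far above the rest of its group of 4 by Dixon's 95% criterion, which chance meets in about 1 in 20 groups. The 4 genes were measured in the same libraries and are not independent. Cxcl9 stood at 2.75 CPM there, with the next library at 0.438 CPM. Ccrl2 stood at 2.34 CPM against 0.566, Ctss at 4.31 against 0.206 and Irf1 at 120.5 against 24.5 CPM.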

How the results depend on the processing

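The calls of Cxcl9, Cxcl10, Cxcl11, Ccl5 and Cx3cl1 held in all 16 alternatives, and of 142 values of the tested chemokines 138 kept their direction and their side of the threshold. Most alternatives kept the filter that Cxcl9 and Cxcl11 passed mainly through the AAV-iIL12 libraries, so for these genes they do not lift that limit. The number of chemokines that rose was 5 to 6 with 1 library left out and 6 with no low-count filter, where Cxcl14 passed at 1.53. With 1 library left out Ccl2 ranged from 0.47 to 1.63, and Cxcl1 from -0.02 to 1.09. With no low-count filter 1 other ligand rose, Ccl8 (log2 fold change 1.47, edgeR adjusted p = 0.0367), and Cxcl16 had 1.25 and did not pass (adjusted p = 0.215). The share of all calls that were higher was 36.0% when scaled by library size alone and 38.5% by the upper quartile, against 49.8% by TMM (median shifts of -0.09 and -0.07), and the directions of the 9 tested chemokines did not change. Cxcl14 was not tested with the filter of 1 CPM in 3 libraries or without AAV-iLuc replicate 3. Same-numbered libraries of the groups had deviations that correlated at 0.09, 0.03 and -0.05. No pairing by number was seen, though so few pairs cannot exclude one, and with the replicate block 5 chemokines rose and 0 fell. The cause of these changes was not tested. Counts under 10 in some libraries limit Cxcl16, Cxcl14 and Cxcl12 in both groups and, in AAV-iLuc, Cxcl11, Cxcl9, Cxcl1, Ccl2 and Cx3cl1.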
